A study of Mus musculus with 22 samples.

Results

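Lungs at postnatal day 7 (P7) and P10, when the gas exchange region is being divided by new septa, were compared with lungs at embryonic day 18 (E18) and P1, when it still consists of wide saccules. All were whole lungs of normal Swiss Webster mice, and per the labels each age was represented by 1 RNA pool of at least 3 lungs. Every pool was hybridised once to both chips of an Affymetrix mouse oligonucleotide set (chip A and chip B), so the comparison used 8 of the 22 arrays of a series that covers 11 ages. A probe set, the group of oligonucleotides that reports 1 transcript, was kept where its signal lay above the median of its chip in at least 2 of the 4 pools. Of 13044 usable probe sets 6820 were kept, and those with a single gene symbol stood for 3701 of the 6117 genes named on the chips. A gene was taken as separated where both later pools (P7 and P10) lay on the same side of both earlier pools (E18 and P1), and it was read from its kept probe set with the highest mean. By that rule 752 genes were higher in both later pools, which was 20.3% of the genes tested, and 569 were lower in both (15.4%). In the remaining 2380 genes (64.3%) the sides overlapped. With only 4 pools a sizeable share of genes meets this rule in each direction even where the pools fall in no particular order. The counts were not tested against that and are not counts of genes that changed with age.

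During septation secondary crests grow from the walls of the saccules and cut them into alveoli. Interstitial myofibroblasts at the crest tips lay down elastic fibres and collagen, driven by platelet-derived growth factor and transforming growth factor beta (TGF-beta), while capillaries in the walls expand in response to vascular endothelial growth factor. Late in gestation the epithelium has already matured under glucocorticoids, and the growth axis of the fetus, in which insulin-like growth factors (IGF) and imprinted genes take part, quietens after birth.

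No age had a replicate. P7 and P10 served as the 2 values of the later side and E18 and P1 as those of the earlier side, so an error in this comparison holds the difference between 2 ages as well as the spread between pools, and p-values measure only that. The whole-array trimmed mean was the same on all arrays of a chip, and the intensities were compared as deposited. The P7 array of chip B stood apart at its bright end, with a 99th percentile of 9792 against 8227 to 8727 on the chip B arrays of the other 3 pools. Its median spike-in control signal was 2799 against 1297 to 1591. Spike-in signal was also higher on the P7 array of chip A (2256 against 1245 to 1422), where the 99th percentile was not. The part of these differences in the results was not tested. The 4 pools carried the defining lung genes: Ager of type I cells lay between 8153 and 10545.5, Sftpc of type II cells between 1654 and 3274, and Pecam1 of endothelium between 817 and 1192.

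On chip A 18.5% of genes were higher and 17.3% lower, and on chip B 24.2% and 11.2%. The chip B excess was one of genes with a single symbol. Over all kept chip B probe sets, in 4 equal groups by signal, 14.2% to 21.8% were higher and 14.9% to 17.7% lower. Counted by probe set, 1216 were higher (17.8%) and 1140 lower (16.7%). Limma, fitted to the 6820 probe sets with Benjamini-Hochberg adjustment, called 0 higher and 0 lower at an adjusted p under 0.05 (0%). At an unadjusted p under 0.05 there were 255 higher (3.74%) and 239 lower (3.5%). With an intensity trend in the variance the calls were 2 and 2, and with all 11 pools fitted as eras 6 and 6. Over genes the smallest adjusted p was 0.109, and 10 genes (0.27%) lay under an adjusted p of 0.2. They were picked out on these values: Crabp1, Wnt11, Htra1, H2-Aa, Igfbp2 and Cd79a were higher, and Dlk1, Igf2, Gpx3 and Pon1 lower. Because 0 probe sets passed, each gene is described by its signals and by the side on which they lay. Signals are intensities on the scale of their chip, and 4 signals given together are those of E18 and P1 against those of P7 and P10.

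Most separations were narrow. The distance between the nearest pools of the 2 sides, here called the gap, had a median of 0.15 (log2) among the 752 higher genes and 0.13 among the 569 lower ones. It was under 0.1 in 280 and 227 of them, and at least 0.5 in 94 and 62. A gap of at least 2-fold was found in 18 higher genes (0.486%) and 9 lower ones (0.243%). At the edge of the rule the spliceosome recycling factor Sart3 (1229 at E18, 1138 at P1, 1300.4 at P7, 1229 at P10) was just inside, and Tfpt (331, 260.5, 228 and 260.5) just outside. Of the kept probe sets, 109 passed the filter through both later pools alone and 104 through both earlier pools alone, so these had to differ.

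The 2 chips gave a second reading of some genes by other probe sets, since the same pools were hybridised to both. Of 203 genes with kept probe sets on both, 35 were higher on chip A, and of these 16 were higher, 5 lower and 14 overlapping on chip B. Of 32 lower on chip A, 15 were lower, 2 higher and 15 overlapping on chip B. The 10 genes with a gap of at least 0.5 on chip A were all separated the same way on chip B. They were Col3a1, Fmo1, Gnai2, H2-Aa, Mdk and Sipa1l2, which were higher, and Gpx3, Krt8, Pim3 and Selenbp1, which were lower. A wide gap on chip B did not always go with the same side on chip A. Slc4a1 was higher by a gap of 0.75 on chip B and lower on chip A.

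**Figure D1:**
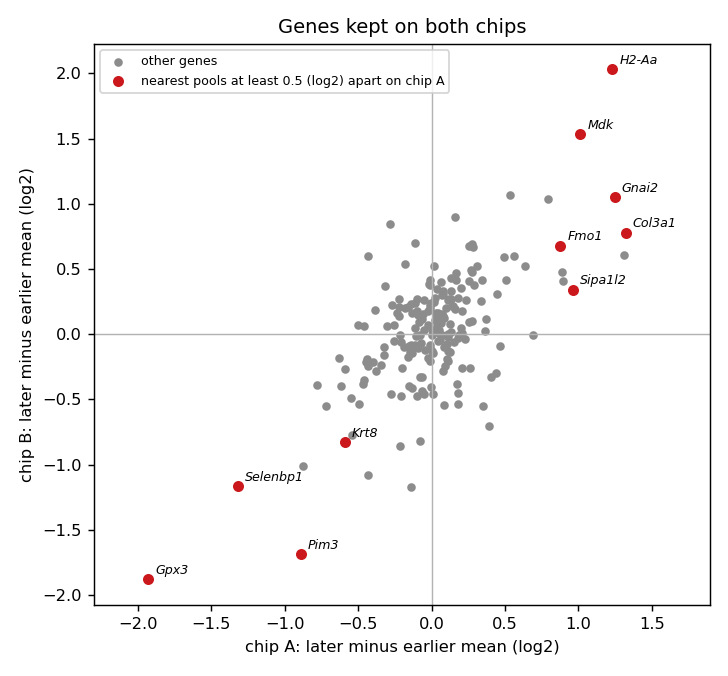
Difference between the later and the earlier pools for the 203 genes kept on both chips, with the chip A value on the horizontal axis and the chip B value on the vertical axis, both as later minus earlier mean (log2). Each point is a gene, and the 10 named red points have nearest pools at least 0.5 apart on chip A; all of them have the same sign on both chips, whereas grey points near 0 lie in every quadrant.

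The widest gap among higher genes belonged to Crabp1, which encodes a cytosolic carrier of retinoic acid. Signals of Crabp1 were 119.8 at E18 and 257 at P1, against 1409 at P7 and 2366 at P10. The difference of the means was 3.38 ± 0.45 (log2 ± SE, adjusted p = 0.124), and a second, dimmer probe set of the gene was also higher (153.6 and 82.7 against 270.0 and 424). Wnt11, a ligand of the non-canonical Wnt pathway, was next. Wnt11 gave 86.9 and 74.0 at E18 and P1, and 373 and 512 at P7 and P10. Its difference was 2.45 ± 0.27 (log2 ± SE, adjusted p = 0.109), and it had passed the filter through the later pools alone. Both genes were dim at E18 and P1 and several times brighter in either later pool.

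Htra1, a secreted serine protease that cleaves matrix proteins, had signals that agreed closely within each side. For Htra1 the earlier pools gave 1138 (E18) and 1036 (P1) and the later pools 4728 (P7) and 4695 (P10). The difference was 2.12 ± 0.22 (log2 ± SE, adjusted p = 0.109). Hpgd, the enzyme that inactivates prostaglandins, was far apart even among the earlier pools. Hpgd read 167 in the E18 pool, 715 in the P1 pool, 3038 in the P7 pool and 2802 in the P10 pool. Its difference was 3.08 ± 0.65 (log2 ± SE, adjusted p = 0.386), and its E18 and P1 signals were farther apart than its P7 and P10 signals. Mdk, the heparin-binding growth factor midkine, was higher on both chips. Signals of Mdk were 1503 at E18 and 1162 at P1, against 4131 at P7 and 3547 at P10. The difference on chip B was 1.53 ± 0.25 (log2 ± SE, adjusted p = 0.208) and on chip A 1.01. On the probe sets whose signals are given, all 3 genes were clear of overlap by more than 2-fold. On chip A the gap of Mdk was 0.67 (log2), which is less.

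Ltbp2, a microfibril protein of the latent TGF-beta binding family, stood at 525 and 727 against 2082 and 3402 and differed by 2.11 ± 0.33 (log2 ± SE, adjusted p = 0.208). Igfbp2, which binds IGFs, stood at 341 and 398 against 1249.8 and 1325 and differed by 1.80 ± 0.23 (log2 ± SE, adjusted p = 0.115). Plat, the tissue plasminogen activator, stood at 90.9 and 279 against 826 and 751 and differed by 2.31 ± 0.52 (log2 ± SE, adjusted p = 0.424). In Plat the earlier pools were themselves far apart, whereas in Igfbp2 they were close. Cdkn2c, an inhibitor of cyclin-dependent kinases, stood at 523 and 480.2 against 1266 and 1467 and differed by 1.44 ± 0.23 (log2 ± SE, adjusted p = 0.208). Cd79a, a chain of the B cell receptor, stood at 102 and 66.2 against 332 and 289 and differed by 1.91 ± 0.29 (log2 ± SE, adjusted p = 0.187), having passed the filter through the later pools alone. The other 2 of the 12 genes with the widest gaps, H2-Aa and Cd74, belong to class II antigen presentation.

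**Figure D2:**
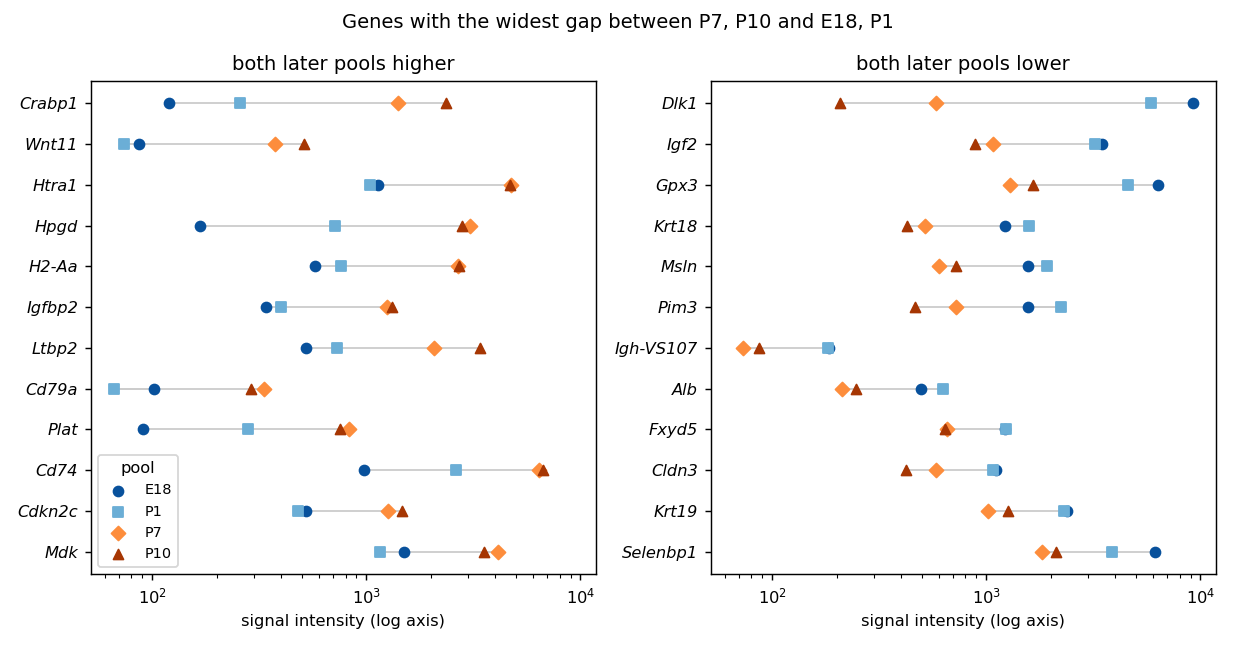
Signal intensity (log axis) in the E18, P1, P7 and P10 pools for the 12 genes with the widest gap in each direction among genes above the floor in all 4 pools. Each marker is 1 pool; in every row the 2 later markers lie on the same side of both earlier ones, which is how the genes were chosen, and Dlk1 spans the widest range.

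Class II molecules present peptides on the surface of macrophages, dendritic cells and B cells. Of 8 kept genes of this list 4 were higher and 0 lower (50% and 0%, against 20.3% and 15.4% of all genes tested). The median was 0.74 against 0.03 over all genes tested. With 1 pool left out the class II median ran from 0.48 without E18 to 0.75 without P7. H2-Aa gave 573 and 761 at E18 and P1, and 2692 and 2699.8 at P7 and P10. H2-Aa, the alpha chain of the class II molecule, differed by 2.03 ± 0.25 (log2 ± SE, adjusted p = 0.111), and all 4 of its kept probe sets were higher, 2 on each chip. For Cd74 the earlier pools gave 974 (E18) and 2628 (P1) and the later pools 6406 (P7) and 6666 (P10). Cd74, the invariant chain that guides class II molecules through the cell, differed by 2.03 ± 0.47 (log2 ± SE, adjusted p = 0.424). H2-DMb1, which helps to load the peptide, stood at 372 and 397 against 678 and 693, and the lysosomal protease Ctss at 1051 and 1006 against 1588 and 1616. H2-Ab1, the partner of H2-Aa, overlapped because its P1 signal was high (275 and 1102 against 961 and 1058). H2-Eb1, H2-DMa and H2-Oa overlapped too, with differences of 0.03, 0.17 and -0.29.

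Class II genes are known to share a short promoter module that ends in an inverted CCAAT box, and the letters of the promoters are shown here because several genes of this list had wide gaps. RefSeq sequences of 250 bases before the start were available for 6 of the 8 genes (GRCm38.p6, the reference strain and not Swiss Webster), and both strands were searched for CCAAT, read as ATTGG on the other strand. The letters were found in 4 of the 6 (66.67%) and in 9314 of 27025 promoters (34.46%). Capitals mark the match in 2 higher genes and in the overlapping H2-Eb1, at chr17:34287824-34288073 (- strand, H2-Aa), chr17:34152941-34153190 (+ strand, H2-DMb1), chr17:34305617-34305866 (+ strand, H2-Eb1).
H2-Aa: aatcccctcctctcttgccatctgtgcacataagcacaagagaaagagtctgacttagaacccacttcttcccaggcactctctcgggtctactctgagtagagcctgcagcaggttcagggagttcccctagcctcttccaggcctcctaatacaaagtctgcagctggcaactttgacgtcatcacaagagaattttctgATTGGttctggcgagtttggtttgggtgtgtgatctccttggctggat
H2-DMb1: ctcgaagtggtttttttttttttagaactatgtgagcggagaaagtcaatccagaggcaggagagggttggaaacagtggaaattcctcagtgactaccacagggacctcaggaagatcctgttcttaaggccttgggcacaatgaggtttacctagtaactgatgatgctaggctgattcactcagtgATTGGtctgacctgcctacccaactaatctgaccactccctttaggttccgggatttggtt
H2-Eb1: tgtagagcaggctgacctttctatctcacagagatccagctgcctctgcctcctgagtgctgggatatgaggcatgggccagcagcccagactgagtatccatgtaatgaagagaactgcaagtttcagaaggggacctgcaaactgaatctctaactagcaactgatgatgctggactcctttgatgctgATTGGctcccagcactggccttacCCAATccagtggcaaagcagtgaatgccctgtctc
The match lay 48 bases before the start in H2-Aa, 61 in H2-DMb1, and 59 and 35 in H2-Eb1. H2-Oa, which overlapped, had 1 match, and Ctss, which was higher, and H2-DMa, which overlapped, had none.

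In the other direction Dlk1, an imprinted transmembrane protein of the Delta family expressed in fetal mesenchyme, had the widest gap of all. Dlk1 read 9231 in the E18 pool, 5855 in the P1 pool, 584 in the P7 pool and 207 in the P10 pool. It differed by -4.40 ± 0.53 (log2 ± SE, adjusted p = 0.111), and both later pools were below the earlier ones by at least 10.03-fold. Igf2, the fetal insulin-like growth factor, followed. Signals of Igf2 were 3462 at E18 and 3214 at P1, against 1077 at P7 and 883 at P10. The difference was -1.77 ± 0.24 (log2 ± SE, adjusted p = 0.124). Gpx3, a secreted glutathione peroxidase, was lower on both chips. Gpx3 gave 6332 and 4592 at E18 and P1, and 1293 and 1660.2 at P7 and P10. Its difference was -1.88 ± 0.28 (log2 ± SE, adjusted p = 0.177) on chip B and -1.93 on chip A. In these 3 genes the pools of a side were nearer to each other than to any pool of the other side.

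The rest of the 12 lower genes with the widest gaps had varied functions. Krt18, a keratin of simple epithelia, stood at 1218 and 1576 against 520.4 and 428 and differed by -1.55 ± 0.26 (log2 ± SE, adjusted p = 0.211). Its relative Krt19 stood at 2383 and 2310.5 against 1021 and 1259.7, and Cldn3, a tight junction protein, at 1105 and 1076 against 581 and 423. Selenbp1, a selenium-binding protein, stood at 6169 and 3873 against 1815 and 2116 and was lower on both chips. Fxyd5, a regulator of the sodium pump, had nearly equal signals within each side, at 1221 and 1237 against 655 and 645. Msln, mesothelin, a surface protein of the mesothelium around the lung, stood at 1568 and 1921 against 600.1 and 722. On these probe sets both later pools were below both earlier ones by at least 1.83-fold, and the chip B probe set of Selenbp1 had a gap of 0.68 (3992 and 2148 against 1274 and 1339).

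The kinase gene Pim3 stood at 1566 and 2225 against 721 and 465 and differed by -1.69 ± 0.32 (log2 ± SE, adjusted p = 0.304). Alb, the plasma protein albumin, stood at 494 and 629.9 against 211 and 246. The immunoglobulin variable segment Igh-VS107 stood at 184 and 183 against 73.0 and 87.1 and passed the filter through the earlier pools alone. Pon1, a paraoxonase, was the only gene with both pools of the low side at the floor, the 25th percentile of its chip (72.3). For Pon1 the earlier pools gave 422 (E18) and 343 (P1) and the later pools 60.8 (P7) and 59.6 (P10). Both later signals count as 72.3, so the difference of -2.40 ± 0.24 (log2 ± SE, adjusted p = 0.109) depends on the floor. Pon1 also passed the filter through the earlier pools alone, so it had to be lower.

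Of 12 genes that textbooks attach to septation, 11 were on the chips and 10 were kept, with 4 higher, 1 lower and 5 overlapping. These were 40% and 10%, against 20.3% and 15.4% of all genes tested. Tnc, the matrix glycoprotein tenascin C, stood at 594 and 1612 against 3465 and 3168 and differed by 1.76 ± 0.48 (log2 ± SE, adjusted p = 0.486). Kdr, the main VEGF receptor of endothelium, stood at 1705 and 1901 against 3023 and 3412 and differed by 0.83 ± 0.23 (log2 ± SE, adjusted p = 0.486). Acta2, the smooth muscle actin of myofibroblasts, stood at 4723 and 8206 against 13963 and 9814 and differed by 0.91 ± 0.35 (log2 ± SE, adjusted p = 0.676). Fbn2, fibrillin 2 of fetal microfibrils, stood at 256 and 238 against 381 and 376. All 4 were read on chip B, and on chip A alone the list had 0 higher and 1 lower of 6 kept.

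Eln, elastin itself, was the lower gene, but by a gap of 0.06. Eln read 11171 in the E18 pool, 10552 in the P1 pool, 10154 in the P7 pool and 8497 in the P10 pool. The difference was -0.23 ± 0.23 (log2 ± SE, adjusted p = 0.966), and the other probe set of Eln, on chip B, overlapped and varied widely between the pools of a side (2544 and 4528 against 2088 and 6693). Pdgfra, the receptor through which myofibroblast precursors are driven, overlapped because E18 was high (985 and 380.3 against 824 and 888). Vegfa, made by the epithelium, overlapped with a high P1 signal (596 and 1376 against 676 and 679). Sftpc, Ager and Pecam1 overlapped as well, with differences of -0.38, -0.15 and 0.11. Igf1 did not pass the filter.

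The lists of interstitial matrix held more higher than lower genes. After each median its range with 1 pool left out is given; fewer pools separate more easily, and without E18 the higher and lower genes numbered 1466 and 1109 in all. In whole lung, more cells of a type and more RNA per cell cannot be told apart. Of 17 kept genes of fibrillar collagens and their assembly 9 were higher and 3 lower (52.9% and 17.6%, median 0.42, from 0.23 without P10 to 0.35 without E18), against 20.3% and 15.4% of all genes tested. Signals of Col3a1 were 9986 at E18 and 9319 at P1, against 19742 at P7 and 13848 at P10. Col3a1, the type III collagen chain, differed by 0.78 ± 0.27 (log2 ± SE, adjusted p = 0.595) on chip B and by 1.32 on chip A. Col1a2 of type I collagen stood at 3769.9 and 4306 against 8535 and 6395 and was higher on all 3 of its probe sets. Col5a2, which starts collagen fibrils, stood at 872 and 1466 against 2759 and 1759. Pcolce, which speeds the trimming of procollagen, stood at 1509.7 and 1431 against 2659 and 2471. In these 3 collagens, all read on chip B, P7 was brighter than P10, as was the bright end of the P7 array as a whole, while Pcolce was nearly level. The lower ones were Col6a2, Plod3 and P4ha1, with differences of -0.18, -0.16 and -0.26.

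Matricellular and other matrix proteins, which modulate how cells attach to the matrix, had 7 higher and 0 lower of 14 (50% and 0%, median 0.54, from 0.33 without E18 to 0.90 without P1). After Tnc the widest gap was that of Vcan, a large proteoglycan, which stood at 143 and 216 against 511 and 424 and passed through the later pools alone. Postn, periostin, stood at 3720.3 and 4152 against 8801 and 5899. Vtn, vitronectin, stood at 191 and 164 against 267 and 338, also passing through the later pools alone. Tgfbi, Thbs2 and Thbs3 were the other higher genes, with gaps of 0.39, 0.29 and 0.10. In Thbs3 the difference of 1.47 went with a low E18 signal (109.7), while P1 (578) was near P7 (619.5). With E18 left out the list had 9 higher and 4 lower.

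Elastic fibre genes had 5 higher and 2 lower of 10 (50% and 20%, median 0.28, from 0.21 without P10 to 0.42 without E18). Besides Ltbp2 and Fbn2 the higher ones were Loxl1, a cross-linking enzyme, at 839 and 1717 against 2076 and 2679.9, and Ltbp3 and Fbln1 with gaps of 0.20 and 0.04. Lox, the other main cross-linking enzyme, was lower, at 4531 and 1971 against 1270.0 and 1434. The 2 cross-linking enzymes thus lay on opposite sides, with differences of 0.97 and -1.15. Proteases of the matrix and their inhibitors had 6 higher and 1 lower of 13 (46.2% and 7.69%). Plau, urokinase, stood at 157 and 189 against 285 and 378, and Timp2, a metalloproteinase inhibitor, at 624 and 1151 against 1679 and 1816. Mmp14, a membrane-bound collagenase, stood at 1165 and 1669 against 2462 and 2292, and its substrate Mmp2 at 3845 and 2741 against 4829 and 4582. Mmp11 was higher by a gap of 0.08, and the urokinase receptor Plaur was lower (-0.39).

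Basement membrane genes had 5 higher and 1 lower of 17 (29.4% and 5.88%, median 0.11, from -0.01 without P10 to 0.25 without E18). Sparc, a collagen-binding glycoprotein, was the brightest of them at 10443 and 9194 against 18026 and 13734. Col4a5, Col4a2 and Lama2 were higher by gaps of 0.18, 0.17 and 0.17. Col18a1, whose fragment endostatin inhibits vessel growth, was lower, at 1590.1 and 1511 against 1064 and 1168. The laminin chain Lama5 overlapped on chip A (-0.14) but was lower on chip B (-1.17). With the mean of the kept probe sets of a gene the list had 5 higher and 2 lower. The higher share of this list was nearer to that of all genes than those of the interstitial matrix lists.

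Smooth muscle and myofibroblast genes had 5 higher and 0 lower of 11 (45.5% and 0%, median 0.48, from 0.11 without E18 to 0.84 without P1). Besides Acta2 these were Myh11, the smooth muscle myosin, at 171 and 218 against 315 and 296, which passed the filter through the later pools alone, and Pdgfrb, a receptor of pericytes and fibroblasts, at 1062 and 1217 against 1532 and 1682. Tpm1 and Actg2 were higher by gaps of 0.23 and 0.10. Tagln, Cnn1 and Des overlapped because P1 was as bright as the later pools or brighter. Summed signals, here and for the other lists, cover every gene of a list on the chips, kept or not (here 13, of which 11 were kept). The sum of this list was 16515 at E18, 23942 at P1, 31216 at P7 and 27723 at P10. P1 thus lay between E18 and the later pools. Without E18 this list had 6 higher and 2 lower.

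Among growth factors and their receptors 5 of 21 were higher and 1 lower (23.8% and 4.76%), close to all genes for the higher side. Tgfb2, a TGF-beta ligand, had the widest gap. Tgfb2 gave 307 and 370.3 at E18 and P1, and 1411 and 829.5 at P7 and P10. It differed by 1.68 ± 0.32 (log2 ± SE, adjusted p = 0.304). For Tgfb3 the earlier pools gave 130.4 (E18) and 291 (P1) and the later pools 499.6 (P7) and 714 (P10). Tgfb3, a second ligand, differed by 1.62 ± 0.43 (log2 ± SE, adjusted p = 0.486). Neither ligand overlapped between the sides, though the 2 peaked in different pools, Tgfb2 at P7 and Tgfb3 at P10. Fgfr2, the epithelial receptor of the branching signal, was the lower gene at 1204 and 960.2 against 855 and 755. Pdgfa, the ligand of Pdgfra, counted as higher by a gap of 0.01 (646 and 664 against 669 and 712).

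Endothelial genes had 11 higher and 2 lower of 23 (47.8% and 8.70%, median 0.32, from 0.17 without E18 to 0.45 without P1). Ptprb read 592 in the E18 pool, 1089 in the P1 pool, 1992 in the P7 pool and 2459 in the P10 pool. Ptprb, a phosphatase that restrains the Tie2 receptor, differed by 1.46 ± 0.35 (log2 ± SE, adjusted p = 0.428). Eng, a TGF-beta co-receptor, was among the brightest genes at 7967 and 8348 against 11943 and 14216. Cdh5, the cadherin of endothelial junctions, stood at 4662 and 4302 against 6084 and 5695. Car4, a carbonic anhydrase of lung capillaries, stood at 582 and 986 against 1098 and 1585, and Gja4, a gap junction protein of arteries, at 1145 and 986 against 1374 and 1687. Notch4, Thbd, Cd34, Edn1 and Sox17 were higher by gaps of 0.20, 0.16, 0.14, 0.08 and 0.04. The lower genes were Emcn (644 and 326 against 211 and 310.5) and Acvrl1 (gap 0.07). Pecam1, Tie1, Icam2 and Klf2 overlapped, so the summed signal of the list, at 41676, 45508, 52705 and 58587 in age order, was not carried by every marker. Without E18 the list had 12 higher and 7 lower.

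Genes of surfactant and type II cells lay on the other side, with 1 higher and 5 lower of 12 (8.33% and 41.7%, median -0.28, from -0.39 without P1 to -0.16 without E18). Signals of Ctsh were 6816 at E18 and 4714 at P1, against 3129 at P7 and 2387 at P10. Ctsh, a protease that processes surfactant proteins, differed by -1.05 ± 0.29 (log2 ± SE, adjusted p = 0.486). Muc1, a mucin of the cell surface, stood at 1364 and 1553 against 931 and 1009, and the phosphate carrier Slc34a2 at 5436 and 6172 against 4977 and 3872. Lpcat1, which makes surfactant phospholipid, and S100g were lower by gaps of 0.04 and 0.01. Sftpd of innate defence overlapped, with a low E18 signal (1636 and 5636 against 4269 and 4063). The fatty acid receptor Cd36, which capillaries also express, was the higher gene at 2209 and 3325 against 4077 and 4077. Type I genes were split, with Sema3b and Igfbp2 higher and Pdpn lower by a gap of 0.0047 among 5 kept, a separation that quantile normalisation removed. Club cell and airway genes were few, with Fmo1, an oxidase, higher at 1556 and 1487 against 2605 and 2276, Pon1 and Hp lower, and 5 of 8 overlapping.

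The IGF axis and imprinted genes had 3 higher and 8 lower of 16 (18.8% and 50%, median -0.44, from -0.65 without P7 to -0.18 without P10). Besides Dlk1 and Igf2, H19, the non-coding RNA beside Igf2, stood at 10666 and 8596 against 4919.6 and 4004. Mest, an imprinted hydrolase, stood at 4583 and 2714 against 1932 and 1072. Cdkn1c, an imprinted cell cycle inhibitor, stood at 1344 and 1087 against 575 and 629 and was lower on both probe sets. Igfbp6 stood at 2438 and 1445 against 943 and 594 and the clearance receptor Igf2r at 781 and 541 against 338 and 369. Peg3 was lower by a gap of 0.08. Igfbp2, Igfbp7 and Igfbp1 were the higher genes, the last by a gap of 0.0036, so the binding proteins did not all lie on the side of the ligand.

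Ribosomal protein genes had 1 higher and 14 lower of 38 (2.63% and 36.8%), but the differences were small, with a median of -0.15 (from -0.28 without P1 to -0.04 without E18). Rpl22l1 stood at 3165 and 3174 against 2174 and 1989.7, Rps19 at 7148 and 5717 against 5072 and 4805 and Rpl12 at 8583 and 7228 against 6459 and 6044. Rpl37a was the higher one (0.42). Rplp0 had probe sets on opposite sides. Glycolysis and hypoxia genes had 0 higher and 7 lower of 15 (0% and 46.7%, median -0.25, from -0.35 without P1 to -0.18 without P10). Pgam1, a glycolytic mutase, stood at 512 and 422 against 285 and 305, Tpi1, an isomerase, at 3349.8 and 2418 against 1927 and 2138, and Hk2, a hexokinase, at 531 and 228 against 100.5 and 206. Gapdh, Aldoa, Ldha and Ldhb were the rest, and E18 was the brightest of the 4 pools for Gapdh, Aldoa, Tpi1, Pgam1 and Hk2.

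Genes of the glucocorticoid response had 1 higher and 4 lower of 11 (9.09% and 36.4%). Their median was -0.49, from -0.78 without P1 to -0.08 without E18. Fkbp5 gave 606 and 425 at E18 and P1, and 249.5 and 194 at P7 and P10. Fkbp5, a chaperone of the receptor, differed by -1.21 ± 0.29 (log2 ± SE, adjusted p = 0.428), and it passed the filter through the earlier pools alone. The metallothioneins Mt1 and Mt2 stood at 2142 and 1799 against 1308 and 896 and at 1903 and 1883 against 1364 and 982, and the clock gene Per1 at 2101 and 1184 against 936 and 904. Hsd11b2, the enzyme that inactivates the hormone, was the higher gene at 263 and 156 against 519.6 and 733. Of the 4 pools, E18 was the brightest in all 4 lower genes. Hormone action was not tested.

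Lipid storage and uptake genes had 2 higher and 4 lower of 7 (28.6% and 57.1%). The carrier Fabp5 (6409 and 6469 against 3559.7 and 2599) and the receptor Vldlr (1465 and 586 against 407 and 318) were lower. Lpl, the lipase of capillaries, was higher (904 and 856 against 1375 and 1262). Cholesterol and fatty acid synthesis had 0 higher and 1 lower of 9 (0% and 11.1%), the cyclase Lss (-0.32). The median of that list was -0.24 (from -0.32 without P1 to -0.12 without E18). Ion and water transport had 2 higher and 3 lower of 7 (28.6% and 42.9%). The sodium pump subunit Atp1b1 was lower (9603 and 6300.1 against 4534 and 3570.0) and its relative Atp1b3 higher (0.36). The potassium channel Kcnj8 was lower at 329.5 and 299 against 179 and 177, having passed through the earlier pools alone. Antioxidant and xenobiotic enzymes had 7 higher and 5 lower of 28 (25% and 17.9%), near the 20.3% and 15.4% of all genes tested. Besides Hpgd and Gpx3, the glutathione transferases Gsta3 (128 and 363 against 776 and 531) and Gstt1 were higher. Gstt1 had P1 at the floor and passed the filter through the later pools alone.

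Genes that pattern the branching lung lay on both sides, with 5 higher and 5 lower of 17 (29.4% each). Shh, the ligand by which epithelium signals to mesenchyme, stood at 415 and 390.5 against 170.2 and 236 and differed by -1.01 ± 0.26 (log2 ± SE, adjusted p = 0.482). Foxa2, an epithelial transcription factor, stood at 422 and 549 against 266 and 261 and its relative Foxa1 at 964 and 880.5 against 589.5 and 558. Gata6, another epithelial factor, was lower on both chips (-0.44 on chip A and -0.19 on chip B). Sfrp2, a Wnt antagonist, stood at 357 and 419 against 220.2 and 228. The 3 epithelial factors and Shh were therefore all brighter in both saccular pools. On the higher side, after Wnt11, Sox4 stood at 1974 and 3155 against 5151 and 5664 on the brighter of 2 higher probe sets. Id3, Sox11 and Hoxb5 were higher by gaps of 0.17, 0.24 and 0.02. In the retinoid pathway Crabp1 was the higher gene and the receptor Rarg the lower one (-0.42) of 6.

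Cell cycle genes had 5 higher and 4 lower of 41 (12.2% and 9.76%), both below the shares of all genes. Ccnd2, a cyclin of the first growth phase, stood at 291 and 739 against 1592 and 1376, and Prc1, needed to divide the cell, at 539 and 234 against 823 and 652. Tyms, which makes thymidylate, was lower at 282 and 340.1 against 230.0 and 226 and passed through the earlier pools alone. The summed signal of the list was 38532 at E18, 36252 at P1, 48777 at P7 and 34569 at P10, so the later pools lay on both sides of the earlier ones. Splicing and chromatin genes had 9 higher and 2 lower of 41 (22.0% and 4.88%), with Nap1l1 lower (-0.55) and Snrpn higher (0.44). Oxidative phosphorylation had 7 higher and 4 lower of 52 (13.5% and 7.69%), both below the shares of all genes. It was led by Ndufa10 of complex I, which was lower (-0.63). Translation factors and the chaperonin had 3 higher and 3 lower of 24 (12.5% each). Immediate early and heat shock genes had 3 higher and 2 lower of 21 (14.3% and 9.52%), with Hspb1 lower (-0.81). These shares too were below those of all genes.

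**Figure D3:**
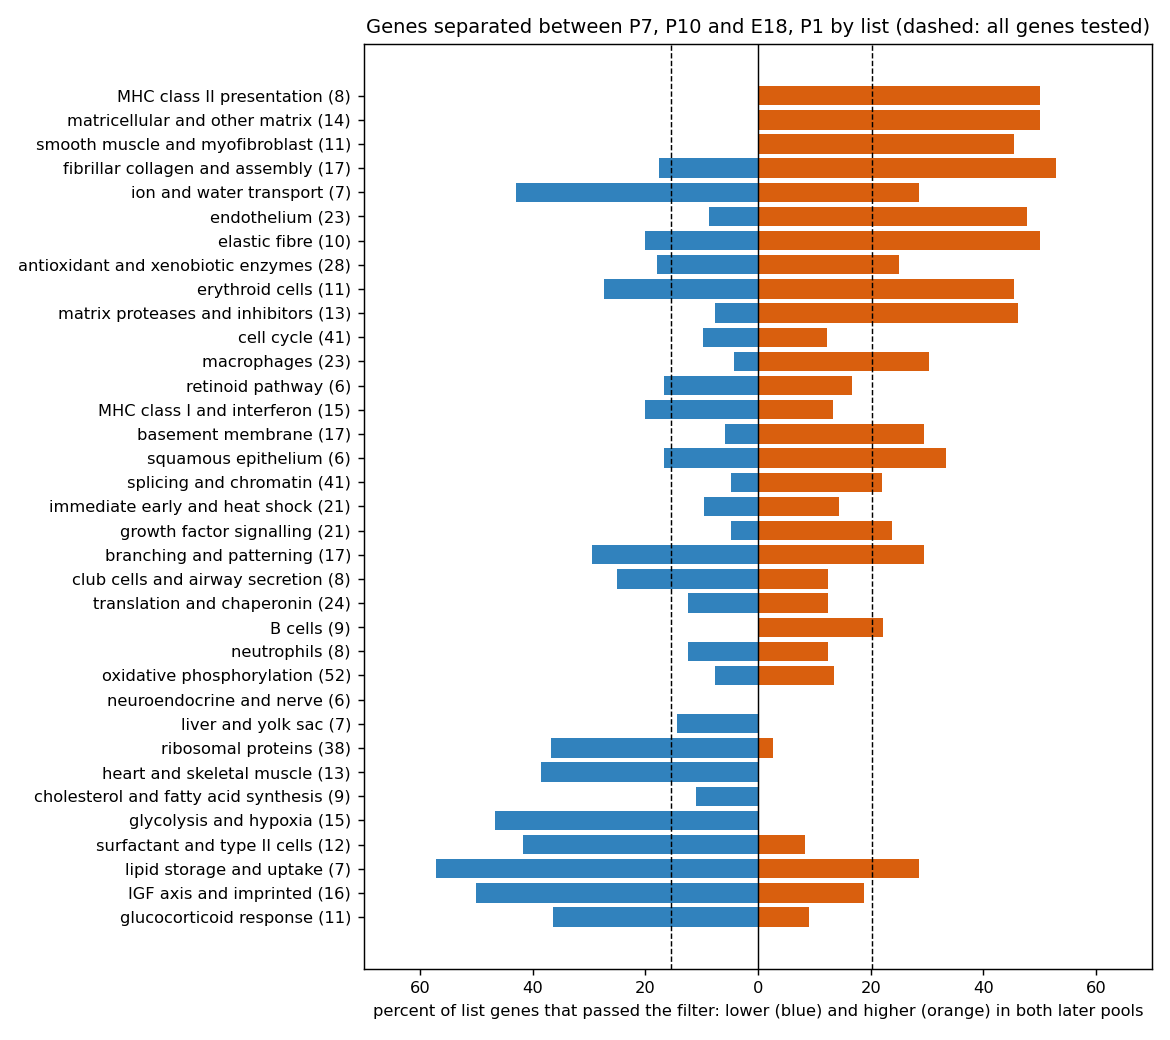
Share of kept genes that were higher (orange, to the right) or lower (blue, to the left) in both later pools, in percent, for lists with at least 6 kept genes (number in parentheses), ordered by median difference. Dashed lines mark the shares over all genes tested (20.3% and 15.4%); class II, matricellular, smooth muscle, collagen, elastic fibre, protease and endothelial bars are among those that reach past the line on the higher side, and IGF, lipid, glycolysis, surfactant, glucocorticoid and ribosomal bars among those on the lower side.

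Markers of blood and of tissues beside the lung were read in the same pools. Of 23 macrophage genes 7 were higher and 1 lower (30.4% and 4.35%, median 0.13, from 0.08 without E18 to 0.25 without P1), among them Adgre1, the F4/80 antigen (94.6 and 106 against 192 and 220.3), and the proteases Ctsk (238 and 221 against 319 and 538) and Ctsd (3257 and 2324 against 4898 and 3569.9). Adgre1 passed through the later pools alone. The macrophage sum was 34639 at E18 and between 39860 and 41428 in the other 3 pools. B cell genes had 2 higher of 9 (22.2%), Cd79a and Blk, and neutrophil genes 1 higher and 1 lower of 8 (12.5% each), Mpo and Camp. Class I and interferon genes had 2 higher and 3 lower of 15 (13.3% and 20%), with Gbp2 (0.59) and H2-Q1 (-0.78) at the ends. Gbp2 passed through the later pools alone and Irf7, among the lower genes, through the earlier pools alone.

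T cell and thymus genes were highest in the P1 pool, with a sum of 6481 against 1626 to 2390 in the other 3 pools. That sum covers all 19 genes on the chips, of which only 4 were kept. Of these 4, Cd3e was lower by a gap of 0.01. Of the 19 genes on the chips 3 were at or below the floor in all 4 pools, Cd28, Rag2 and Il7r. Both Cd3e and Blk overlapped when each array was scaled to the same median. Heart and skeletal muscle genes also summed highest at P1 (32769 against 19749 to 23098) and had 0 higher and 5 lower of 13, with Actc1, a cardiac actin, at 5428 and 11666 against 4864 and 4739 and Tnnt2, a cardiac troponin, at 434 and 840.2 against 321 and 374. What the P1 sums have to do with other P1 values was not tested. Erythroid genes had 5 higher and 3 lower of 11 (45.5% and 27.3%, against 20.3% and 15.4% of all genes tested). Their median was 0.17, from -0.11 without P1 to 0.51 without E18, so its sign depended on the pools used. Among the higher ones were Bpgm, a red cell enzyme, at 449.7 and 1048 against 1915 and 1456, and Alas2, which starts haem synthesis, at 5837 and 5357 against 7606 and 8710.0. No gene of the list, the 3 lower ones included, had a difference below -0.20, and the largest was that of Bpgm (1.28). The erythroid sum was 14273 and 13482 in the earlier pools and 21169 and 20312 in the later ones, and Alas2 held a large part of it. Slc4a1, the red cell anion exchanger, was higher on chip B (0.85) and lower on chip A by a gap of 0.02.

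Liver and yolk sac genes had 0 higher and 1 lower of 7, which was Alb. Squamous epithelium had 2 higher and 1 lower of 6, with Krt17 lower (599.5 and 427 against 109 and 246), having passed through the earlier pools alone, and Krt10 and Krt14 higher by gaps of 0.09 and 0.03, Krt10 through the later pools alone. Of 2 cartilage genes and 6 neuroendocrine and nerve genes 0 were separated. The 2 with the largest mean differences were Mia (-0.49) and Col9a2 (-0.09) of cartilage, and Scg5 (-0.95) and Mapt (-0.43) of nerve, Scg5 with P7 at the floor and so dependent on it (-0.34 with the floor at the 40th percentile, -1.21 with a floor of 1 unit).

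The ages that the comparison did not use place these genes in the whole course. A mean difference of at least 2-fold was found in 63 of the separated higher genes (1.7% of all) and in 43 of the lower ones (1.16%). Of the 63 higher genes 20 had an adult signal above all 4 pools (31.7%, against 24.4% of all genes tested), and 21 had one at or below the brighter earlier pool. At P14 the counts were 17 (27.0%, against 18.6%) and 14. Of the 43 lower genes 10 had an adult signal below all 4 pools (23.3%, against 27.9%), and 17 had one at or above the dimmer earlier pool. Both courses were thus found among the separated genes, and the counts are a description, since they are read against the same 4 pools as the rule.

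Hpgd, H2-Aa and Cd74 were brighter in the adult than in all 4 pools, with adult signals of 5080.0, 8035 and 10570.4. Tnc was at or below its brighter earlier pool in the adult, with 3296 at P4, 868 at P14 and 244 in the adult. Vcan stood at 657 at P4 and 124 at P14, and was brightest at E12 (1347). Wnt11 stood at 92.4 at P14, within the range of its signals before birth (at most 116). Crabp1 was still at 2489 at P14 and reached 110.5 in the adult. Htra1 was already at 4438 at P4 and stood at 2311 at P14 and 1562 in the adult.

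Some genes had brighter signals both before E18 and after P1. Mdk stood at 11333 at E12 and 7223 at E16 before its lower signals at E18 and P1. Igfbp2 stood at 1183 at E12 and 1107 at E16, near its P7 and P10 levels. In both genes E18 and P1 lay between brighter ages, but in Mdk the signal was again at that level at P14 (1379.6) and lower in the adult (481). Gpx3 was bright at E18 and P1 and dimmer at the ages on both sides; it stood at 925 at E16, 1656 at P4, 4932 at P14 and 6206 in the adult. Pon1 stood at 17.4 at E16, 218 at P14 and 488 in the adult. Dlk1 stood at 2563 at P4, at 46.2 at P14, which is below the floor, and at 36.0 in the adult.

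**Figure D4:**
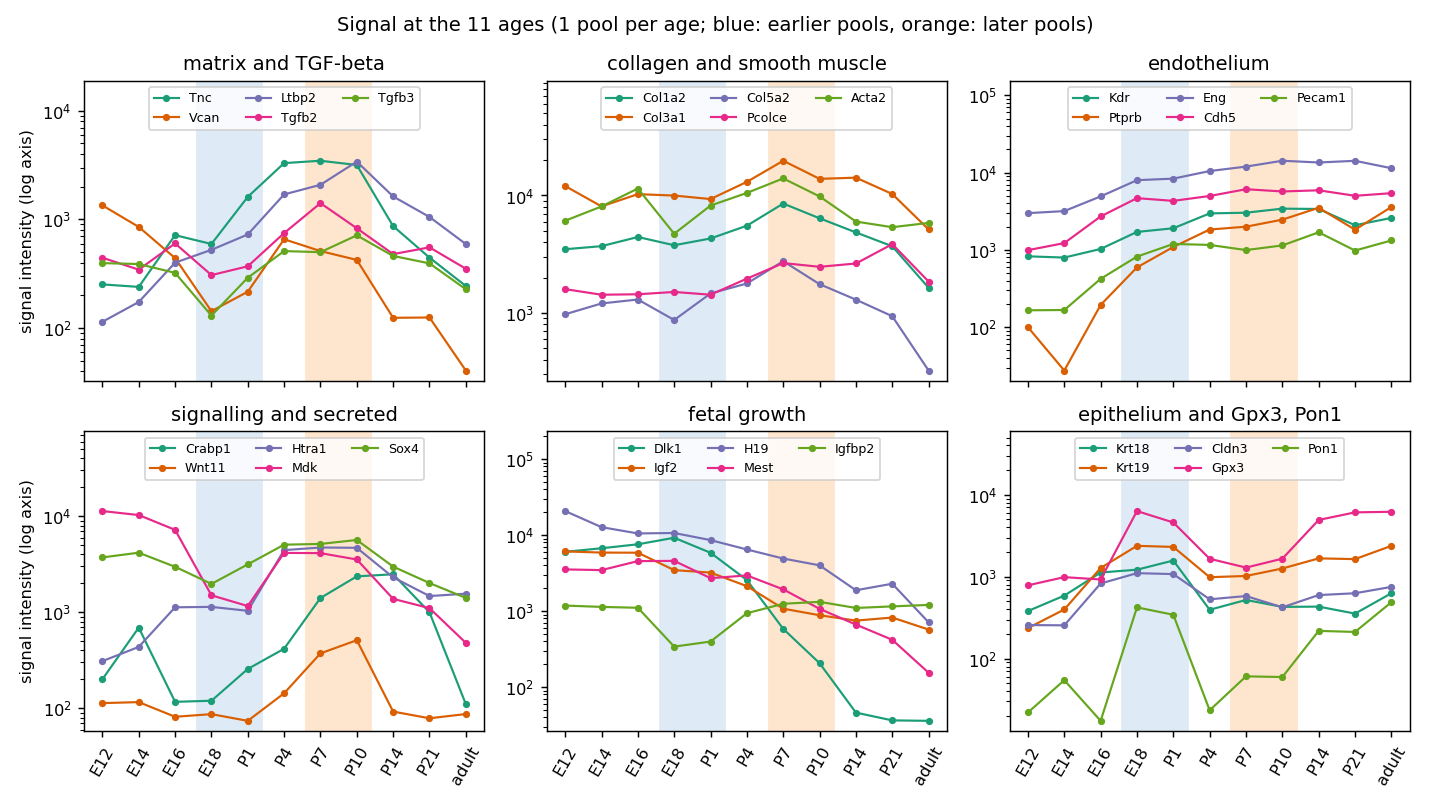
Signal intensity (log axis) at the 11 ages, 1 pool per age, for genes in 6 groups, with the earlier pools shaded blue and the later pools orange. Tnc, Tgfb2, Wnt11 and Htra1 are highest between P4 and P10, Dlk1, Igf2, H19 and Mest are lower at every age from P7 on than at E18 and P1, and Gpx3, Krt19 and Pon1 dip at P4 to P10 and are brighter again in the adult.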

How the data were processed

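Per the labels, total RNA of each pool was made into biotin-labelled cRNA and hybridised to the Mu11K chip set. The authors deposited linear signal intensity per probe set, and the sources used here do not state how probe cells were summarised. The deposited intensities had a trimmed mean near 500 on every array, so no further normalisation was applied. Intensities under the 25th percentile of a chip (72.3 on chip A, 47.3 on chip B) were set to it and then taken to log2. Control probe sets (110) and probe sets with missing values (2) were left out, and the filter was a signal above the chip median (250.3 and 176.7) in at least 2 of the 4 pools. With no detection calls used, the number of pools limits the precision.

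Limma 3.58.1 in R 4.3.3 compared the 2 later with the 2 earlier pools (two-sided, Benjamini-Hochberg over 6820 probe sets), and ± is its standard error. Gene symbols came from the platform annotation: 4346 kept probe sets had 1 symbol, 137 several and 2337 none, and 4336 symbols matched the mouse gene table. Probe sets of near-identical genes, such as globins, ribosomal proteins and class II chains, can share signal.

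Named were the 12 genes with the widest gap in each direction above the floor, up to 5 per direction with the low side at the floor, the measured septation genes, and up to 4 genes of each of 39 lists by gap. Further list members were named after their values were seen. The comparison, the members and the lists were chosen with earlier results of these data known. Alternatives covered the floor, the filter, normalisation, the variance model, the samples fitted and each pool left out; restriction to chip A or chip B was added after seeing the data. Sequences were from RefSeq (GRCm38.p6).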

Additional observations from a re-analysis of the deposited data

How the results depend on the processing

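The counts of limma calls, 0 higher and 0 lower, were the same with the floor at the 40th percentile, without the filter, with the 2 other filters, with quantile normalisation, with median scaling and without any one pool. With a floor of 1 intensity unit 1 probe set was called lower, a globin Hba-a1 probe set (-8.88), with 0 higher. With an intensity trend 2 were called higher and 2 lower, among them Htra1 and Dlk1. With all 11 pools fitted as eras 6 were called higher and 6 lower, among them Igfbp2, Wnt11 and Cdkn2c, and Dlk1, Igf2, Gpx3 and Pon1; that fit assumes that the other eras vary like these. Leaving out 1 pool sets 1 pool against 2, which separates more easily by construction: higher probe sets then numbered 2164 (without P10) to 2523 (without E18) and lower ones 2023 (without P7) to 2628 (without P1), against 1216 and 1140. Without the filter the shares were 13.22% and 12.27% of probe sets. Of 135 named separated genes 1 overlapped after quantile normalisation (Pdpn) 2 after median scaling (Blk and Cd3e) and 3 with the mean of the kept probe sets of a gene (Actc1, Eef1a1 and Eln). Of the 77 with a probe set on chip A 2 did not keep their side there (Eef1a1 and Slc4a1), and of the 70 on chip B 1 did not (Eln). With the floor at the 40th percentile the number was 0. It was also 0 with a floor of 1 unit, with the other filters where the gene was still kept, and without any one pool. In these 3 cases it could not be otherwise. A lower floor keeps the order of the pools, a filter leaves the signals of a kept gene unchanged, and separated sides stay separated without a pool.

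Differences of separated named genes changed sign only by the choice of probe set: Eef1a1 from 0.40 to -0.076 with the mean of probe sets, Slc4a1 from 0.85 to -0.28 on chip A and Eln from -0.23 to 0.14 on chip B. The others belonged to overlapping genes, since leaving out a pool cannot change the sign of a separated one. With 1 pool left out Col9a2 ran from -0.39 (without P1) through 0.0082 (without P7) to 0.21 (without E18), Mia from -1.03 (without P1) to 0.048 (without E18), Pecam1 from -0.16 (without E18) to 0.38 (without P1), Pdgfra from -0.20 (without P1) to 1.17 (without E18) and Vegfa from -1.02 (without E18) to 0.19 (without P1). Without P10 and without P7, in this order, Mapt was -1.03 and 0.17, Scg5 -2.04 and 0.13 and Sftpc -0.81 and 0.051. The cause was not tested. On chip A alone 18.03% of probe sets were higher and 17.29% lower. No paired analysis was possible because every group holds 1 array.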

Other observations

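Of the genes kept on both chips, 7 were separated in opposite directions by the 2 chips and were named after their values were seen. Ets1, Rad23b, Rplp0, Smarce1 and Srm were higher on chip A and lower on chip B, and Ptprf and Slc4a1 were lower on chip A and higher on chip B. Their gaps on chip A were between 0.02 and 0.18 (log2), below the 0.5 that picked out the 10 genes compared above. On chip B the gap of Slc4a1 was 0.75, so a gap above 0.5 on 1 chip did not always go with 1 direction on both.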
